A study of Mus musculus with 4 samples.

Results

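The Janus kinases and the SOCS family of feedback inhibitors were described in mouse T helper 17 (Th17) cells, a CD4 T cell lineage named for its IL-17. The 10 genes, 4 kinases (Jak1, Jak2, Jak3, Tyk2) and 6 inhibitors (Cish, Socs1, Socs2, Socs3, Socs5, Socs7), were chosen by name and found by gene ID among the 50600 genes of the deposited tables. RNA was sequenced from primary Th17 cells of strain C57BL/6NJ, in 4 libraries numbered as biological replicates 1 to 4. All 4 belong to 1 group and carry 1 shared donor label. No treatment or second cell type is set against them, and the labels give neither age nor sex. The linked culture protocol is one for differentiating CD4 T cells, and the output name of the counting step carries 48 hours. Nothing in the labels says that the libraries came from separate animals or cultures, so p-values measure only the spread between these samples, which may in part be technical.

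Library totals ran from 28555677 to 58104663 fragment counts. The members had between 443 counts (Socs5, replicate 1) and 23172 counts (Cish, replicate 3). Th17 markers were all present, with a summed level of 16030 to 16700 TPM (counts per base of exon, scaled to the same total in each library) over 6 genes. The 5 markers of CD4 T cells summed to 1524 to 1637 TPM. Markers of other cells were low: NK cell markers were at 0 counts in 3 of 3 genes, 4 B cell markers summed to at most 0.215 TPM and 3 red blood cell markers to at most 0.172. The 4 macrophage markers summed to 6.22 to 7.38 TPM, nearly all of it Cd68, with Lyz2 at 0 counts, and the 2 CD8 markers to 9.01 to 11.6 TPM, nearly all of it Cd8b1. The libraries stood apart in sex-linked genes: Xist, an RNA of the inactive X chromosome, measured 132, 131, 0.329 and 0.496 TPM in the order of the replicate numbers. Ddx3y, a Y-linked gene, measured 0.428, 0.347, 58.9 and 57.3 TPM. Replicates 1 and 2 thus carry the female pattern and replicates 3 and 4 the male one, so the libraries do not all come from 1 animal.

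Cytokine receptors of this pathway have no enzyme activity of their own. Janus kinases bound to their tails phosphorylate the receptor and then STAT transcription factors, which enter the nucleus. JAK1 and JAK3 serve the common gamma chain receptors for cytokines such as IL-2, JAK2 and TYK2 serve the receptor for IL-23, and receptors that hold gp130 use JAK1, JAK2 and TYK2. STATs switch on genes of the SOCS family, whose proteins bind the kinases or the receptors through an SH2 domain and, through a SOCS box, recruit a ubiquitin ligase. In Th17 cells, STAT3 downstream of IL-6, IL-21 and IL-23 drives the lineage genes, and SOCS3 is known as the brake on that arm.

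RefSeq windows on GRCm38.p6, from 250 bases before to 50 after a transcript start, were at hand for 7 of the 10 genes (none for Socs2, Socs5 and Socs7). They were searched on both strands for TTCNNNGAA, the motif bound by most STATs, for TTCNNNNGAA, a form with a longer spacer bound by STAT6, and for GAAANNGAAA, found in interferon response elements. The first of these was in 8.29% of 32817 windows of the same length, the second in 6.94% and the third in 3.43%. The stretches below are those of the feedback genes that hold a match, shown because their levels are compared further on, and the capitals mark the matches.
Cish: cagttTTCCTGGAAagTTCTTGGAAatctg
Socs1: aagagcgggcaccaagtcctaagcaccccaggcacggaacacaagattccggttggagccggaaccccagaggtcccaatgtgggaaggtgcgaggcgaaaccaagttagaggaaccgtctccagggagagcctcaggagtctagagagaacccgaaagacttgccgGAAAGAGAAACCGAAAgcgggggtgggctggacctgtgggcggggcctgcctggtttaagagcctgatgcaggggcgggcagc
Socs3: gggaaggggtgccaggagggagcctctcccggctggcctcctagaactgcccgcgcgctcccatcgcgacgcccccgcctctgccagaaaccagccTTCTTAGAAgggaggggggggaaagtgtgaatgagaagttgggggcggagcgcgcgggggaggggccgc

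The Cish stretch (chr9:107296654-107296683, plus strand) holds 2 copies of TTCNNNGAA, at bases 1 to 9 and 12 to 20 counted from the RefSeq start. Windows with 2 or more copies made up 0.457% of all. The Socs1 stretch (chr16:10785537-10785786, minus strand) holds 2 overlapping copies of GAAANNGAAA between bases -83 and -68, against 0.222% of windows with 2 or more, and no copy of TTCNNNGAA. The Socs3 stretch (chr11:117969452-117969616, minus strand), the part of its window before the start that lies outside annotated exons, holds 1 TTCNNNGAA at bases -154 to -146. No match to any of the 3 motifs was found in the windows of Jak1, Jak2, Jak3 and Tyk2. The RefSeq start lies 633 bases inside the deposited gene for Cish and 681 bases inside it for Socs3, so other starts of these genes were not searched. All 30 bases of the Cish stretch lie in an annotated exon of a longer GENCODE M21 transcript. These matches are letters in a window and show no binding.

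**Figure D1:**
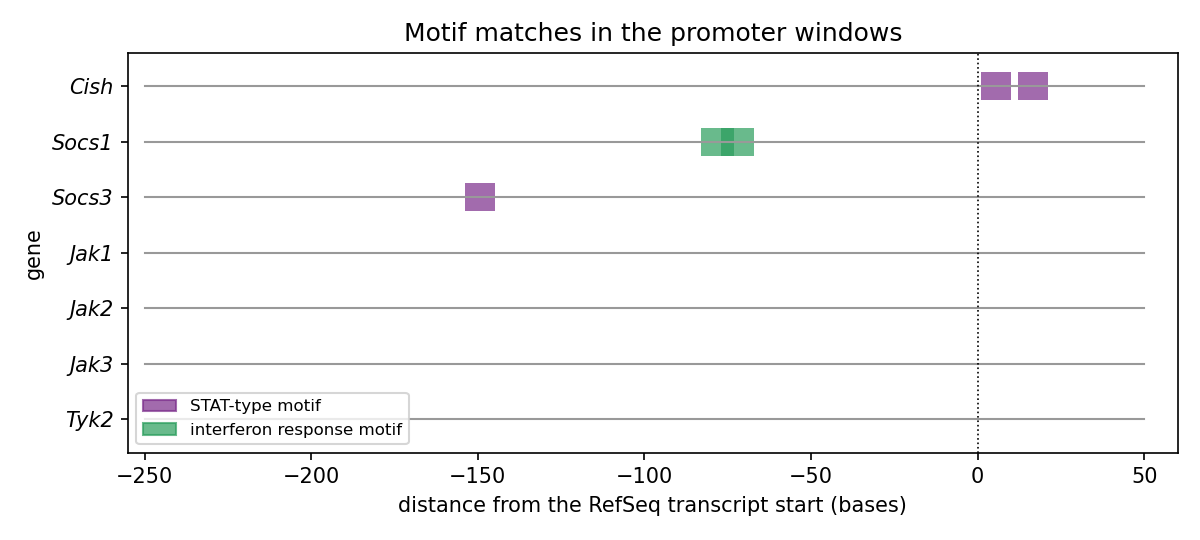
Motif matches in the promoter windows of 7 genes, by distance in bases from the RefSeq transcript start (dotted line); purple boxes are TTCNNNGAA and green boxes are GAAANNGAAA. Cish has 2 STAT-type matches just after the start, in exon sequence, Socs3 has 1 before it, Socs1 has 2 overlapping interferon response matches, and the 4 kinase windows have none.

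All 10 members were at 1 TPM or more in every library, against 47.0% of 21764 protein-coding genes, and also at 5 TPM or more, against 40.5%. In bulk RNA, fewer cells that express a gene and less RNA per cell cannot be told apart. Among the kinases, Jak1, Jak2 and Jak3 lay close together and Tyk2 lay 2.15 to 2.51 lower on the log2 TPM scale.

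Jak1, the kinase shared by gamma chain, gp130 and interferon receptors (chr4:101152367-101265282, minus strand of mm10, as are all gene coordinates given here), was at 145, 143, 145 and 141 TPM in replicates 1 to 4, a mean of 144 ± 1.70 (SD, n = 4). It was the steadiest member. Jak2, which serves IL-23 and gp130 receptors (chr19:29251828-29313080, plus strand), was at 190.2, 179, 188 and 180.45 TPM, a mean of 184 ± 5.57. Its range lay above that of Jak1 in all libraries.

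Jak3, the partner of the gamma chain whose loss abolishes IL-2 receptor signalling (chr8:71676296-71690575, plus strand), was at 159, 151, 143 and 152 TPM, a mean of 151 ± 6.92. Replicate 3 was its lowest library, and its range overlapped that of Jak1. Of its 5352 exon bases, 404 (7.55%) are also exon of Insl3 on the same strand, where fragments were not counted. Tyk2, the kinase of IL-12, IL-23 and type I interferon receptors (chr9:21104068-21131243, minus strand), was at 34.03, 30.2, 30.9 and 33.97 TPM, a mean of 32.3 ± 2.04. On the opposite strand its exons overlap 1700084C06Rik by 554 bases, and counting used strand. It made up 6.30% ± 0.318 of the summed kinase TPM, while Jak2 made up 36.0% ± 0.737, Jak3 29.6% ± 0.952 and Jak1 28.1% ± 0.574.

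**Figure D2:**
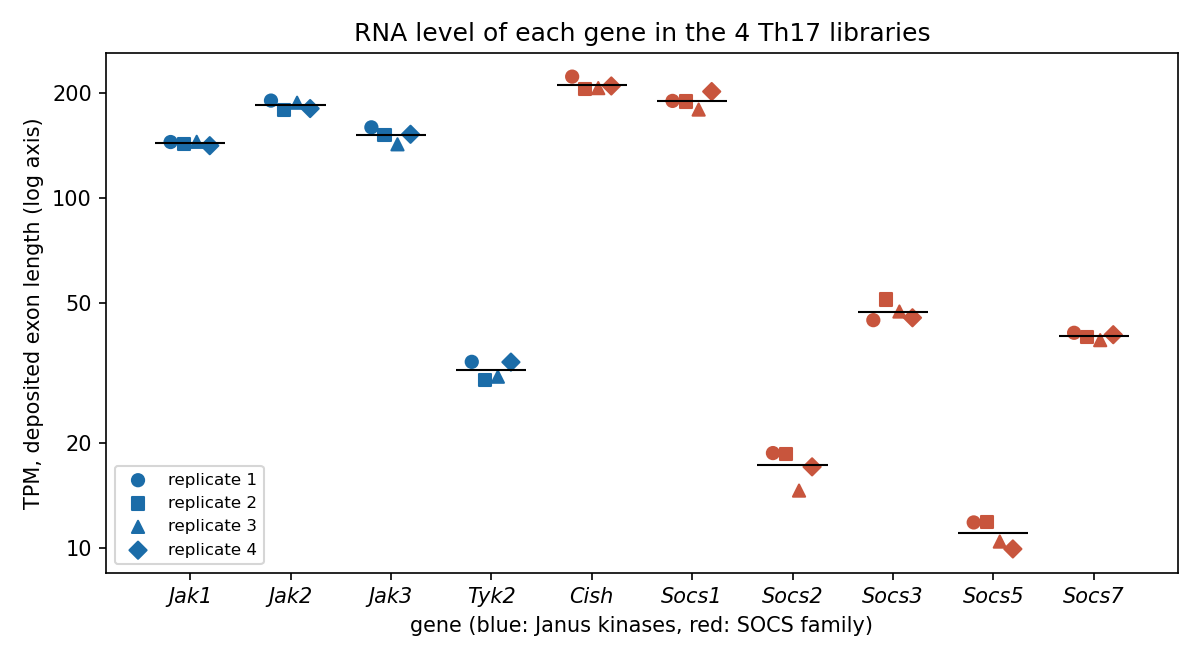
TPM on a log axis of the 10 genes in the 4 libraries (1 symbol per library, black bar at the mean), Janus kinases in blue and SOCS family genes in red. Cish, Socs1 and 3 of the kinases sit between 141 and 223 TPM, Tyk2, Socs3 and Socs7 between 30.2 and 51.3, and Socs2 and Socs5 below 19.

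The inhibitors were spread over a wider range than the kinases. Cish lay above all kinases in every library, Socs1 overlapped Jak2, Socs3 and Socs7 lay well under both, and Socs2 and Socs5 lowest. Cish, a STAT5-induced inhibitor that acts on gamma chain and T cell receptor signalling (chr9:107296026-107302784, plus strand), was at 223, 205, 206 and 209 TPM, a mean of 211 ± 8.04. On the opposite strand its exons overlap Gm17040 and Gm17041 by 740 bases. Replicate 1 was the highest library, and 96.1% of protein-coding genes had a lower mean. Socs1, an inhibitor that binds the kinases directly and restrains interferon and gamma chain signals (chr16:10783808-10785536, minus strand), was at 190, 189, 179 and 202 TPM, a mean of 190.0 ± 9.26. Socs1 was lowest in replicate 3 and highest in replicate 4, and its lowest value lay under the highest of Jak2. The counted Socs1 model has 1220 exon bases, and 1688 bases (58.0%) of the longest coding transcript in the newer GENCODE release lie outside it and were not counted.

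Socs3, the inhibitor that binds gp130 and its kinases (chr11:117966079-117970047, minus strand), was at 44.8, 51.3, 47.4 and 45.5 TPM, a mean of 47.3 ± 2.94. Only replicate 2 was above 50 TPM. It made up 9.15% ± 0.7003 of the summed inhibitor TPM, against 40.8% ± 1.16 for Cish and 36.8% ± 1.199 for Socs1. Socs7, a larger family member (chr11:97362551-97398542, plus strand), was at 41.2, 40.0, 39.3 and 40.7 TPM, a mean of 40.3 ± 0.842. Its range lay below that of Socs3, and it was the steadiest inhibitor.

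Socs2, known for restraining growth hormone receptor signalling (chr10:95385362-95417180, minus strand), was at 18.7, 18.6, 14.6 and 17.0 TPM, a mean of 17.2 ± 1.91. Of its 100-base stretches of transcript, 2.31% also occur in Gm9847, which shares no exon bases with Socs2 in the counted models. Fragments that mapped to both were not counted, and their number was not tested. The shares of such stretches, with both strands searched, were 6.75% for Cish, 6.21% for Tyk2 and 5.51% for Jak3, and 0 for the other 6 members. Those of Cish, Tyk2 and Jak3 were with the overlapping genes named above. For Cish and Tyk2 those genes lie on the opposite strand, and counting used strand, so these shares do not show that fragments were lost. Socs5, reported to act on IL-4 and EGF receptors (chr17:87107679-87137583, plus strand), was at 11.8, 11.9, 10.4 and 9.92 TPM, a mean of 11.0 ± 0.991. Both were higher in replicates 1 and 2 than in replicates 3 and 4 without overlap, the division seen for Xist. Of the genes tested for spread, 18.2% lay higher in replicates 1 and 2 without overlap and 18.4% lower, so 2 of 10 members is near the background. The part of that division in these values was not tested.

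The order of the members was compared within each library, as the log2 ratio of each gene to the next lower one by mean TPM. The test was an exact sign-flip test, two-sided. With 16 sign patterns, 4 libraries cannot reach a p below 0.125, so no pair could pass 0.05. Neighbours were taken as apart where every library had the same order and the ranges did not overlap. This held for 7 of the 9 neighbouring pairs, each with p = 0.125 in the exact sign-flip test and 0.161 after Benjamini-Hochberg adjustment. The pairs and their direction were taken from the same 4 libraries, so these p-values are no separate support for the order. With the deposited lengths, the widest step was from Jak1 down to Socs3, at 1.60 ± 0.09 (SD, n = 4), which parts the 5 highest members from the rest. Cish exceeded Socs1 by 0.15 ± 0.08, and Jak2 exceeded Jak3 by 0.28 ± 0.08. The step from Cish to Socs1 was 1.32 with coding transcript lengths, 1.85 with the longest transcript and 2.55 on the CPM scale (counts scaled to the library total). For Socs1 the coding length was the counted 1220 bases, and the longest transcript includes 1688 bases that were not counted. Below Socs3, the steps were 0.23 ± 0.11 to Socs7, 0.32 ± 0.07 from Socs7 to Tyk2, 0.91 ± 0.17 from Tyk2 to Socs2 and 0.64 ± 0.12 from Socs2 to Socs5.

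2 pairs were not apart. Socs1 was above Jak2 in 2 of 4 libraries, at 0.04 ± 0.10 (exact sign-flip p = 0.5). Jak3 was above Jak1 in 3 of 4 libraries, at 0.08 ± 0.07 (exact sign-flip p = 0.25). Replicate 3 was the exception, and without it the ranges of Jak3 and Jak1 were apart, at 0.11.

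Several of these orders rest on the gene length that scales the counts. The deposited length joins all exons of a gene, and for some members it is far longer than the longest coding transcript: 9531 against 2222 bases for Socs2, 6419 against 2850 for Cish and 7227 against 4906 for Jak1. The bases of that transcript within the deposited exons were then used as the length, which left Socs1 at 1220 and Socs5 at 4392 bases. With these coding lengths, Cish rose to 339 ± 12.7 TPM (SD, n = 4) and Socs2 to 52.7 ± 5.82, above Socs3 at 38.2 ± 2.38. Jak1 (151 ± 1.80), Jak3 (144 ± 6.47) and Jak2 (131 ± 3.96) then stood in the opposite order, with Jak3 and Jak1 still overlapping. The log2 ratio of Jak2 to Jak3 was -0.13 ± 0.08, of Jak3 to Jak1 -0.07 ± 0.07, of Socs7 to Tyk2 -0.13 and of Tyk2 to Socs2 -0.68. The widest step was then from Socs7 (29.8 TPM) to Socs5 (7.85 TPM). Without any length, Socs1 left the upper group, at 69.6 ± 3.50 CPM against 243 ± 10.5 for Jak3. Under both lengths Cish was the highest inhibitor, Socs5 the lowest member and Tyk2 the lowest kinase, its log2 gap to the nearest kinase being 2.15 with the deposited lengths and 2.004 with coding lengths.

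**Figure D3:**
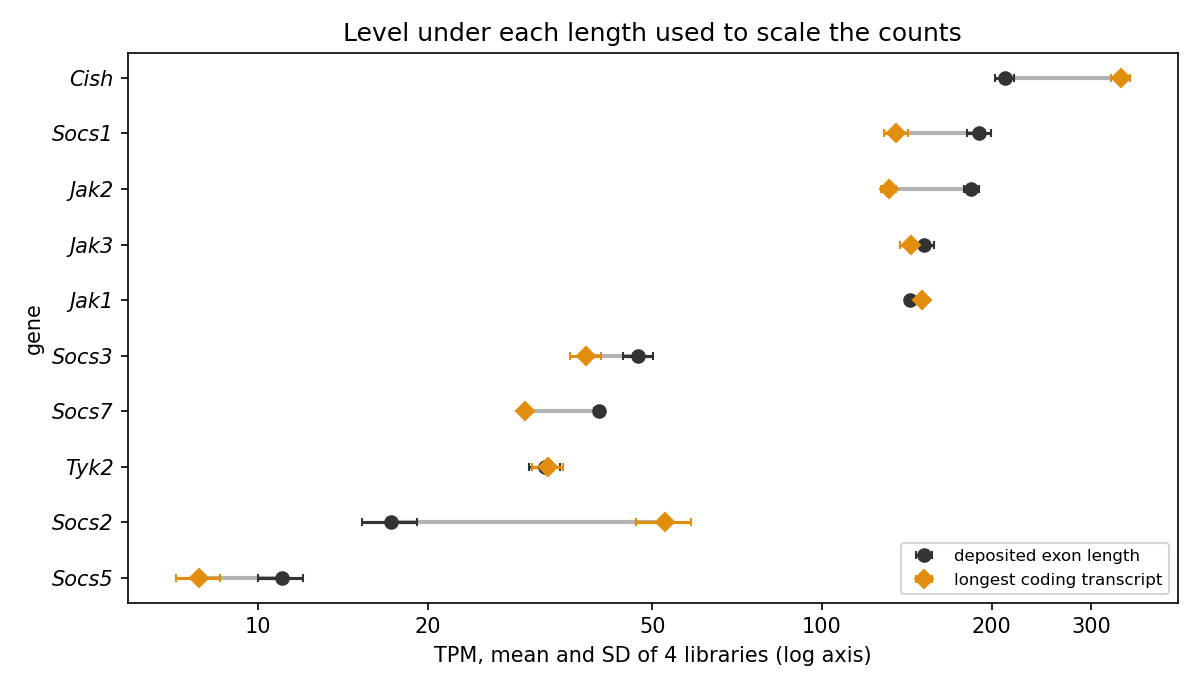
Mean TPM and SD over 4 libraries on a log axis, with the deposited exon length (black circles) and with coding length (orange diamonds). Coding length is the bases of the longest coding transcript that lie within the deposited exons. Cish moves from 211 to 339 TPM and Socs2 from 17.2 to 52.7, while Jak1 and Tyk2 hardly move.

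Which family had the larger summed level depended on the length used. The 4 kinases summed to 528, 503, 506 and 508 TPM in replicates 1 to 4, and the 6 inhibitors to 529, 516, 497 and 524 TPM. The inhibitors were higher in 3 of 4 libraries, at a log2 difference of 0.01 ± 0.03 (SD, n = 4; exact sign-flip p = 0.375), which is within the spread between libraries. With coding transcript lengths the inhibitors were higher in 4 of 4 libraries, at 0.39 ± 0.03 (exact sign-flip p = 0.125). They were lower at -0.32 with the longest transcript and -0.43 on the CPM scale, with the same sign-flip p. The longest transcript of Socs1 includes 1688 bases that were not counted. Socs1 averaged 63.1 TPM with that length, against 136 with coding lengths. CPM makes no allowance for gene length. With coding lengths Cish alone made up 56.2% ± 1.23 of the inhibitor sum.

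The members differed in how much they varied between libraries. The coefficient of variation of TPM ran from 1.19% for Jak1 and 2.09% for Socs7 to 9.00% for Socs5 and 11.1% for Socs2, against a median of 3.54% over 7905 protein-coding genes at a mean of 10 TPM or more. It was above that median for 7 of 10 members: Cish (3.81%), Jak3 (4.57%), Socs1 (4.87%), Socs3 (6.22%), Tyk2 (6.32%), Socs5 and Socs2. Counting noise alone gives 0.908% for Jak1, 1.71% for Socs7, 4.19% for Socs5 and 2.27% for Socs2. Jak1 and Socs7 were thus close to the limit set by depth, and Socs2 was far above it.

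**Figure D4:**
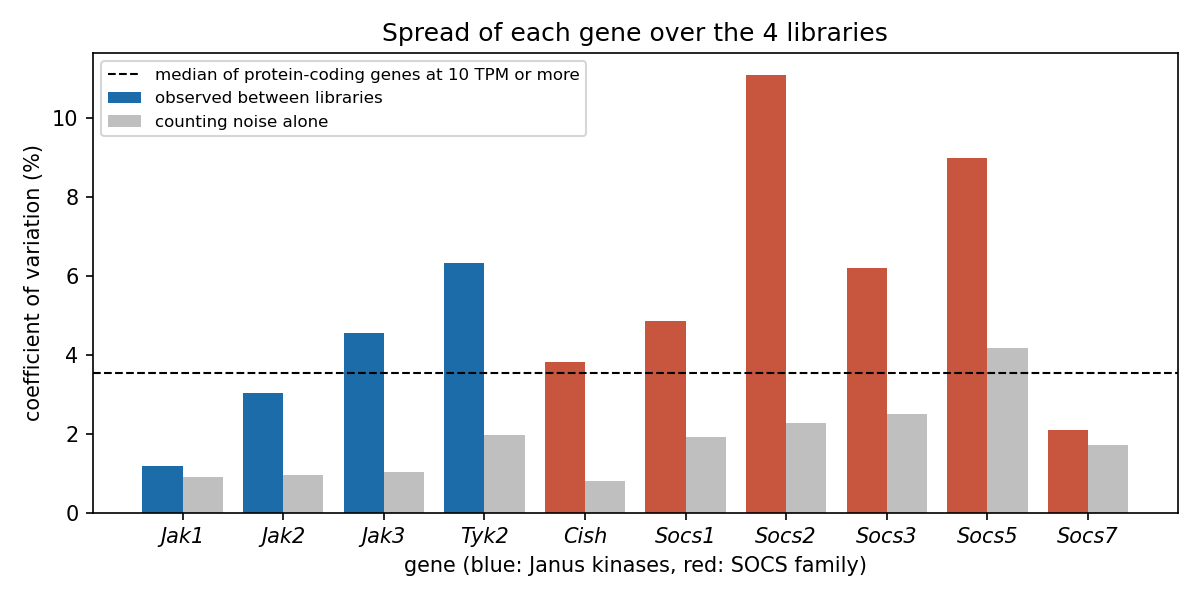
Coefficient of variation in percent over the 4 libraries for each gene (coloured bars, blue for kinases and red for inhibitors) beside that expected from counting noise alone (grey bars); the dashed line is the median of protein-coding genes at 10 TPM or more, 3.54%. Socs2 at 11.1% and Socs5 at 9.00% are the highest, and Jak1 at 1.19% is the lowest.

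With edgeR's Poisson deviance, 0 of 10 members passed at an adjusted p under 0.05 and a highest CPM at least 2 times the lowest, against 1.74% of the 12434 genes tested. Without the ratio, 8 of 10 passed, all but Jak1 (adjusted p = 0.242) and Socs7 (adjusted p = 0.416), against 36.6% of genes tested. This test allows for counting noise only and passes small differences in genes with many counts. The stricter deviance at edgeR's trended dispersion called 0 of 10, against 0.145% of genes with the ratio and 0.523% without, and 1 of 10 had an unadjusted p under 0.05 without the ratio, against 4.48% of genes. With DESeq2's gene-wise dispersions it called 0 of 12434 genes, so that setting says nothing about the members. That member was Socs2, whose highest CPM was 1.27 times its lowest (edgeR adjusted p = 0.740). It was lowest in replicate 3, without which the ratio was 1.08. With genes of chromosomes X and Y left out and no ratio asked, an alternative added after the data were seen, Socs2 passed (edgeR adjusted p = 0.0264), as did 0.757% of the 12014 genes tested. Over all alternatives its adjusted p ranged from 0.0264 to 1.00.

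Receptors that feed the kinases differed widely in level. Of 8 common gamma chain cytokine receptor genes, 6 reached 1 TPM in each of the libraries, with a median over the list of 177 TPM. Il2ra, the alpha chain of the IL-2 receptor, was at 1512, 1576, 1548 and 1519 TPM, Il2rb at 1009, 994, 927 and 937, and Il2rg, the shared gamma chain, at 299.6, 298, 282 and 300.6. In TPM, these 3 chains of the IL-2 receptor all lay above Jak1 and Jak3 in every library. On the CPM scale, Il2ra and Il2rb still did. Il2rg (203 to 216 CPM) then lay below Jak3 (230 to 255) and Jak1 (308 to 315) in every library. Il9r, the IL-9 receptor, had 1, 1, 10 and 1 counts.

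Of the 8 gp130 and IL-12 family receptor genes, 6 were at 1 TPM or more, with a median of 31.3 TPM, led by Il12rb1, which serves IL-12 and IL-23, at 164, 168, 153 and 164 TPM. Il6st, which encodes gp130, was at 83.1, 82.0, 83.5 and 77.2 TPM, and Il27ra between 76.1 and 79.0. Osmr, the oncostatin M receptor, had at most 3 counts. Interferon and IL-10 receptors were lower, with a median of 19.4 TPM and 5 of 6 reaching 1 TPM throughout. Ifngr2 lay between 28.7 and 31.3 TPM, Ifngr1 between 25.1 and 27.8, Ifnar1 between 18.8 and 19.99 and Il10ra between 0.589 and 1.16.

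Receptors that use JAK2 in blood and endocrine tissues were mostly under 1 TPM, though Jak2 itself was high. The median of 11 such genes was 0.0148 TPM, and 3 reached 1 TPM throughout: Crlf2, a chain of the TSLP receptor (30.3 to 34.9 TPM), Csf2ra of the GM-CSF receptor (9.59 to 11.8) and Il3ra of the IL-3 receptor (7.06 to 10.7). Csf2rb, a signalling chain of the GM-CSF and IL-3 receptors, had 0 counts in all 4 libraries. It has a closely related paralogue, Csf2rb2, and fragments that mapped to both were not counted. How many fragments were lost in this way was not tested, so the level of Csf2rb is uncertain.

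Downstream, all 7 STAT genes were at 1 TPM or more, with a median of 142 TPM. Stat3, the Th17 lineage STAT, was at 221, 209, 208 and 205 TPM, Stat5b, activated by IL-2, at 204, 198, 187 and 187, and Stat6, activated by IL-4, at 194, 192, 185 and 191. Stat2, a component of the type I interferon response, was lowest, between 10.1 and 10.6 TPM. Genes listed as partners of the SOCS box in its ubiquitin ligase were all detected, 7 of 7, with a median of 117 TPM. The list is mixed: it holds the cullin genes Cul5 (mean 35.7 TPM) and Cul2 (104), and the RING genes Rnf7 and Rbx1. The median is the level of Rbx1, and which of these genes act with the SOCS box was not tested. Elob, the adaptor elongin B, led at 688 to 720 TPM, followed by the RING protein gene Rnf7 at 163 to 170 and by Eloc, elongin C, at 121 to 124, with Arih2 lowest at 31.4 to 32.4.

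Brakes of other kinds were also present, 9 of 10 at 1 TPM or more in every library with a median of 61.0 TPM. Ptpn6, the phosphatase SHP-1, lay between 271 and 299.7 TPM, Ptpn1 between 217 and 227 and Ptprc, which encodes CD45, between 213 and 229. Each of these phosphatases lay above Socs3 in every library. Usp18, an interferon-induced brake, was lowest with 14, 3, 10 and 5 counts. All 10 textbook STAT target genes were detected, with a median of 131 TPM, led by Junb (999 to 1121 TPM), Myc (419 to 454) and Ccnd2 (295 to 312), with Irf1 lowest (11.9 to 13.4). Of the 67 genes in these 8 lists, 53 reached 1 TPM throughout. The lists were described by count and median only. None of the 56 that were tested was called by edgeR's negative binomial deviance, with or without the ratio, and 2 had an unadjusted p under 0.05 without it, a share no higher than the 4.48% of all genes.

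**Figure D5:**
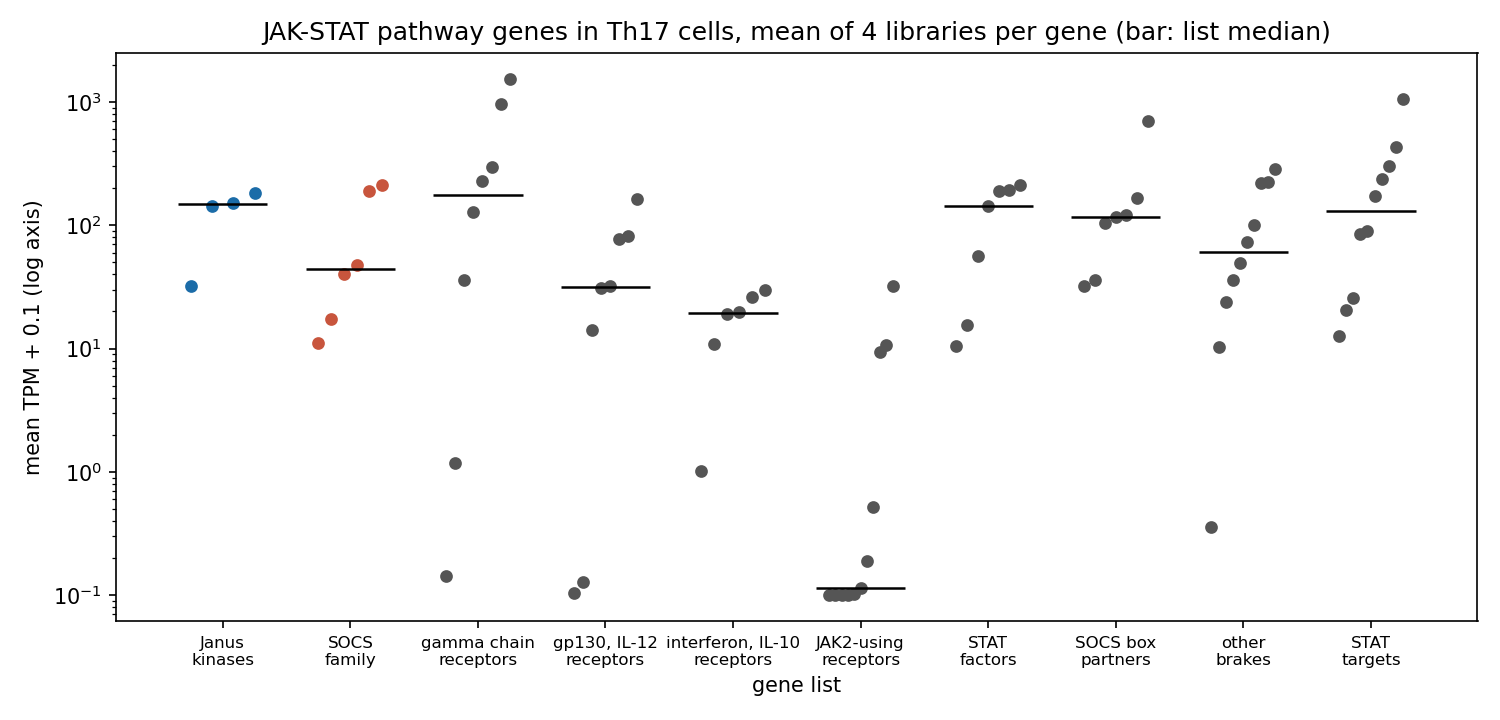
Mean TPM plus 0.1 over 4 libraries on a log axis, 1 point per gene, for the Janus kinases (blue), the SOCS family (red) and 8 pathway lists (grey), with a bar at each list's median. Kinases, STAT factors and the mixed list of SOCS box partners have medians of 147, 142 and 117 TPM, while most JAK2-using receptors of other tissues lie near 0.

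For each member, the pathway gene nearest in level was the one with the smallest value of its largest log2 TPM difference over the 4 libraries. Cish was nearest to Stat3 (211 ± 6.95 TPM, SD, n = 4), within 0.03 in every library. Jak1 was nearest to Stat5a (142 ± 3.13 TPM), within 0.06, and Jak3 had the same nearest gene, within 0.14. Socs1 and Jak2 were both nearest to Stat6 (191 ± 3.84 TPM), within 0.08 and 0.10. Among the lower members, Socs3 was nearest to the adaptor gene Sh2b3, within 0.18, Socs7 to Pias4, within 0.20, Tyk2 to Arih2, within 0.11, Socs5 to Il10rb, within 0.08, and Socs2 to Il12rb2, within 0.34. These are likenesses of level on the deposited exon lengths and carry no test.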

How the data were processed

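The 4 Th17 libraries are labelled total RNA-seq, while the library protocol linked to them is for poly(A)+ RNA. The authors deposited raw counts of fragments, which featureCounts 1.4.6-p4 assigned to genes with strand option 2 (reverse) and GENCODE M13 gene models on mm10, per the file headers and the labels. No aligner is named in the sources used here. Fragments that mapped to several places or overlapped 2 genes were left uncounted by that command. Symbols came from GENCODE M21 by gene ID (10 of 10 members, 50376 of 50600 genes). The members and gene lists were chosen with earlier results of these data known.

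TPM was computed here from counts and the deposited exon lengths, with a pseudocount of 0.1 on the log2 scale. Spread between libraries was tested on counts of 12434 genes with edgeR 4.0.16 in R 4.3.3 (TMM scaling, default filter on low counts, deviance on 3 degrees of freedom, Benjamini-Hochberg adjustment), and was tested on simulated data first. CPM ratios used a prior count of 0.5. Alternatives were CPM, other lengths, other pseudocounts, DESeq2 1.42.0 size factors and dispersions, library totals, no filter, genes of X and Y left out and each replicate left out. Coding transcript lengths, the bases of the longest coding transcript within the deposited exons, were added after the data were seen. Named genes were all members, the 3 highest and the lowest gene of each list, any list gene called by the negative binomial deviance and each member's nearest gene. Cul2, Cul5 and Rbx1 were named besides these.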

Additional observations from a re-analysis of the deposited data

Results flagged for a closer look

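Of 48 values examined, 2 had 1 library far from the other 3, and chance does this in about 1 of 20 groups. Il2rg, the common gamma chain, was at 282 TPM in replicate 3 against a mean of 299.6 in the others, and the gap to the nearest library took up 0.883 of the whole range. Il9r, the IL-9 receptor, was at 0.116 TPM in replicate 3 against a mean of 0.0192, but this rests on 10 counts there and 1 in each other library. None of the 10 members had such a library.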

How the results depend on the processing

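Length scaling had the widest effect on the order of the genes. With CPM in place of TPM, the log2 ratio of Socs1 to Jak2 was -1.998, of Jak3 to Jak1 -0.36, of Socs3 to Socs7 -1.10 and of summed inhibitors to summed kinases -0.43. With the longest transcript of any kind as length, which for Socs1 includes bases that were not counted, Socs1 to Jak2 was -1.21, Jak2 to Jak3 -0.12, Jak3 to Jak1 -0.0799, Socs7 to Tyk2 -0.13 and inhibitors to kinases -0.32. With coding transcript lengths, Jak2 to Jak3 was -0.13, Jak3 to Jak1 -0.0691, Socs7 to Tyk2 -0.13 and Tyk2 to Socs2 -0.68, while inhibitors to kinases became apart at 0.39. The 2 other pseudocounts changed no order. Without the 2-fold ratio the Poisson test called 8 members in place of 0. The negative binomial test called 1 with X and Y genes left out and no ratio asked. Leaving out each replicate in turn gave a log2 ratio of Jak3 to Jak1 from 0.0553 to 0.110, apart only without replicate 3. The highest to lowest CPM ratio then ranged from 1.01 to 1.02 for Jak1, 1.04 to 1.10 for Jak3, 1.03 to 1.07 for Cish, 1.05 to 1.13 for Socs1, 1.08 to 1.27 for Socs2 and 1.08 to 1.16 for Socs3. Ratios between genes were taken within each library, but no analysis paired between groups was possible because all libraries belong to 1 group.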

Other observations

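2 genes of the pathway lists had an unadjusted p under 0.05 in edgeR's negative binomial deviance, and neither passed adjustment. That is 2 of 56 tested, no more than the 4.48% of all genes with such a p. Stat4, the STAT downstream of IL-12, was at 13.4, 15.4, 14.5 and 18.4 TPM in replicates 1 to 4 (edgeR adjusted p = 0.262), highest in replicate 4. Il12rb2, the IL-12 receptor chain, was at 14.9, 15.9, 12.2 and 13.4 TPM (adjusted p = 1.00), lowest in replicate 3. Stat4 was chosen here after its values were seen.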
